A study of Mus musculus with 180 samples.

Results

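Enterocytes, the absorptive cells of the intestinal villus, finish digestion at their brush border, a carpet of microvilli that carries hydrolases anchored in the membrane and the transporters that take up their products. The 10 genes described here were taken by symbol from a list of brush border genes. All 10 were found among the 13820 genes of the deposited table of all libraries. They are Lct (lactase), Sis (sucrase-isomaltase), Plb1 (phospholipase B1), Alpi (intestinal alkaline phosphatase), Anpep (aminopeptidase N), Dpp4 (dipeptidyl peptidase 4), Enpep (glutamyl aminopeptidase), Slc5a1 (the sodium-glucose cotransporter SGLT1), Slc15a1 (the peptide transporter PEPT1) and Vil1 (villin, which bundles the actin core of the microvillus). Several of these proteins also sit on the brush border of the kidney proximal tubule, and Dpp4 is also a surface protein of lymphocytes, where it is known as CD26. In the intestine, transcription of this class of genes is known to be driven by HNF4, HNF1, CDX and GATA factors, and expression rises as cells leave the crypt and move up the villus.

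Bulk RNA from 15 tissues of 12 female mice, aged 6 weeks, was sequenced as 3′ tags, and every mouse gave 1 library per tissue. The groups compared held 4 mice each, all perfused with PBS and EDTA and labelled with a time point of 12 hours: C57BL/6J mice given PBS (mice 1 to 4), C57BL/6J mice given LPS at 5 mg/kg (mice 5 to 8), and B6.129S-Tnftm1Gkl/J mice, which are deficient in TNF, given LPS at 5 mg/kg (mice 9 to 12, TNFKO LPS). LPS, lipopolysaccharide, is a component of the bacterial outer membrane that triggers innate immunity, and TNF is one of the first cytokines released in response. The design has no TNF-deficient mice given PBS, so what the allele or strain does at rest, and what it does under LPS, cannot be told apart.

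The 12 small intestine libraries held 1051216 to 2497933 counts, the colon libraries 493597 to 1270361 and the kidney libraries 1084176 to 2106453. Levels are given as the deposited signal, counts that the authors divided by a scaled library size, and differences as log2 of signal plus 1 with the standard error (SE) from limma. A gene is said to have risen or fallen where limma's Benjamini-Hochberg adjusted p over all genes of the tissue was below 0.05. The Tnf signal in small intestine was 4.03 to 8.79 in PBS mice, 4.76 to 8.06 in LPS mice and 18.0 to 23.1 in the TNF-deficient mice. A 3′ tag does not test an allele whose deleted part the labels do not name, so these values check nothing about the genotype. In bulk tissue, fewer enterocytes and less RNA per enterocyte cannot be told apart. Marker sums describe the whole-tissue samples. The 8 pan-epithelial markers summed to a signal of 6284.5 to 7229 in PBS small intestine. The 6 colon markers summed to 7300.3 to 9999.8 in PBS colon, and the 6 kidney markers to 4988 to 5762 in PBS kidney. Pan-epithelial markers are not particular to small intestine, so their sum does not check which tissue was taken. Pancreas enzyme markers summed to 564 to 3655 in PBS small intestine.

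Promoters are shown for Lct, Sis, Alpi and Plb1, each of which holds letters of a motif named below. Those of Anpep, Enpep, Slc5a1, Slc15a1 and Vil1 held none of the letters searched for these motifs and are not printed, nor is that of Dpp4. The promoters shown therefore do not stand for the 10 genes. RefSeq sequences (GRCm38.p6) were matched by symbol for 10 of 10 genes. The 250 bases before the start site are printed 5′ to 3′ on the gene's strand. Capitals mark letters that match a motif on either strand. For HNF4 the letters searched were CAAAGTCCA. An HNF1 half-site was taken as GTTAAT. The motif of CDX factors was taken as TTTATG. That of GATA factors was AGATAA. These letters were chosen after the promoters had been seen. In GENCODE M21 the genes span chr1:128284756-128328318 (Lct), chr3:72888557-72967863 (Sis), chr1:87098002-87101606 (Alpi) and chr5:32232708-32366520 (Plb1). The regions printed are chr1:128328319-128328568 (minus strand) for Lct, chr3:72967864-72968113 (minus strand) for Sis, chr1:87101607-87101856 (minus strand) for Alpi and chr5:32238834-32239083 (plus strand) for the first of the RefSeq starts of Plb1.
Lct: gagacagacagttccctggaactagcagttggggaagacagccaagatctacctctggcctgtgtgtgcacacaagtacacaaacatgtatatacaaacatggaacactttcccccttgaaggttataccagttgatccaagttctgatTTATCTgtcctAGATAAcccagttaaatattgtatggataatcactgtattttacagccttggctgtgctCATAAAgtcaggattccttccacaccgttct
Sis: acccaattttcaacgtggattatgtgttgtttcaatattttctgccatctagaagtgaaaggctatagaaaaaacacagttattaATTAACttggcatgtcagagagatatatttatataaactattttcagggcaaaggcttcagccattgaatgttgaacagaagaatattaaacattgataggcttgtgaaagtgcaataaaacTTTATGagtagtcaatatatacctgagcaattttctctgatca
Alpi: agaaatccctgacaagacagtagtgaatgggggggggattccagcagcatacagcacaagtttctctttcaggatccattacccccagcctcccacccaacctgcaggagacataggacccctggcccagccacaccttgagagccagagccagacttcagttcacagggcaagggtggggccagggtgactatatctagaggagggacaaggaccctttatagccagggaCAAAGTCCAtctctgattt
Plb1: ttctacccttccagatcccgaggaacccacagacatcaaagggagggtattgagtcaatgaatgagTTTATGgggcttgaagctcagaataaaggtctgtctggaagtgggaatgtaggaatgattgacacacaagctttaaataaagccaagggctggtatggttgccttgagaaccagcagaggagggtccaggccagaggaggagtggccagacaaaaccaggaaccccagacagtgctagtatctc

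Over windows of 300 bases, from 250 before to 50 after the start, the HNF4 letters were found in 0.475% of 32851 promoters and, among the 10 genes, in that of Alpi, 19 bases before its start site. GTTAAT was found in 7.1% of promoters and in that of Sis. TTTATG was found in 11.9% of promoters and in those of Lct, Plb1 and Sis, where in Lct and Sis it began 31 and 43 bases before the start. AGATAA was found in 11.2% of promoters and in those of Lct, which holds it on both strands within its printed stretch, and Dpp4. For NF-kB only a narrow form of the motif was searched, and it was found in 1.63% of promoters and in none of the 10. Looser forms were not searched, and the printed Alpi stretch holds gggggattcc, which the narrow form leaves out. The absence therefore does not show that these promoters, that of Alpi included, lack NF-kB-like letters. A match describes letters in this window and is not evidence of binding.

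In mice given PBS, the 10 genes each had their highest mean signal in the small intestine among the 15 tissues, as the map of levels by tissue shows. Lct reached 389.8 ± 48.2 (SD, n = 4) there and at most 4.22 in any of the other tissues, a 92.5-fold gap to the second highest, muscle. Sis stood at 1692 ± 138, 54.6-fold above liver. Alpi stood at 479.7 ± 88.5, 47.2-fold above colon. For Lct, Plb1 and Sis the levels in colon and kidney lay within the range of the 12 tissues outside intestine and kidney. For Alpi that held in kidney, while colon was at 2.12% of the small intestine level.

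**Figure D1:**
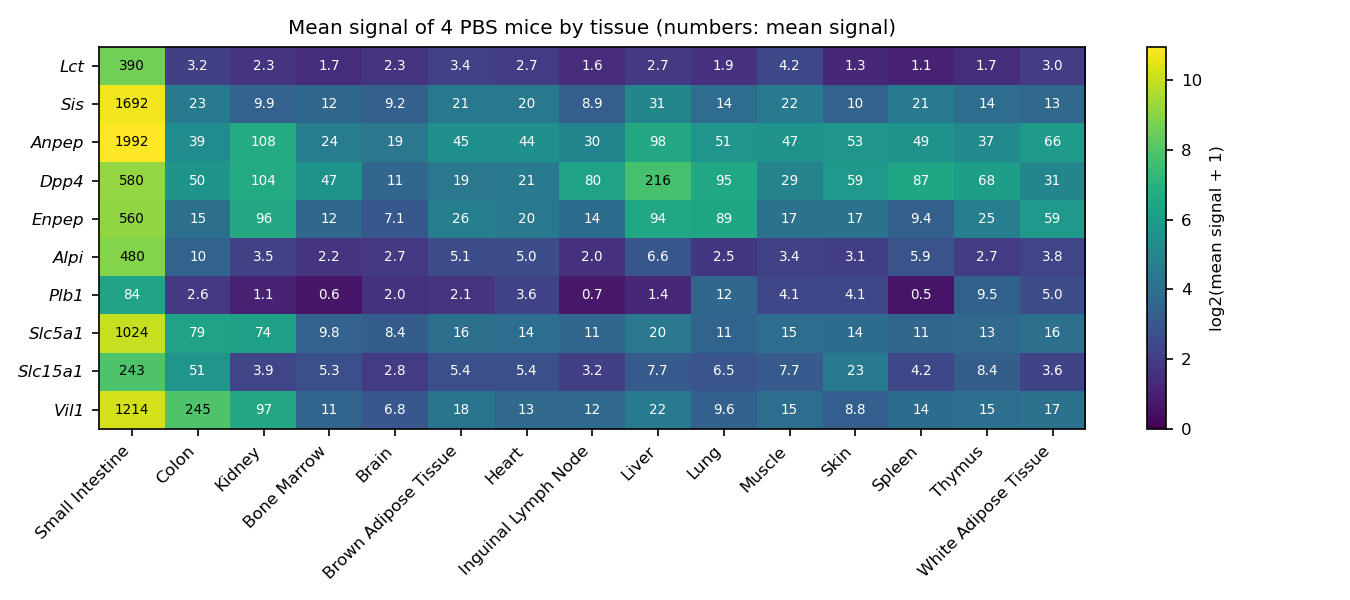
Mean signal of 4 PBS mice for each gene (vertical) in each of 15 tissues (horizontal); colour is log2 of the mean signal plus 1 and the number in each cell is the mean signal. The small intestine column is the highest for each of the 10 genes, from 84.0 for Plb1 to 1992 for Anpep, while Dpp4 also reaches 216 in liver, and Anpep and Enpep reach 108 and 96.3 in kidney.

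The peptidases were less restricted. Anpep had a mean of 1992 ± 229 in small intestine, 108 ± 3.67 in kidney and 98.1 in liver. Dpp4 had 580.4 ± 79.7 in small intestine, 216 in liver and 104 ± 14.8 in kidney, and its range over the other 12 tissues was 11.4 to 216. Enpep, which trims angiotensin II, had 559.6 ± 70.2 in small intestine, 96.3 ± 10.2 in kidney and 93.7 in liver. Transporters and villin had a second site in colon: Slc5a1 at 78.6 ± 2.71, 7.67% of its small intestine level, Slc15a1 at 50.9 ± 11.6 (21%) and Vil1 at 245 ± 34.1 (20.1%). In the kidney Slc5a1 stood at 73.9 ± 14.2 and Vil1 at 96.9 ± 6.32, each above its highest level in the 12 remaining tissues, while Slc15a1 at 3.91 ± 0.848 lay within their range.

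LPS lowered all 10 genes in the small intestine, at a background of 13.4% of 13271 genes tested that fell. In each of the 10, the 4 LPS libraries lay below the 4 PBS libraries, which was so for 12.9% of genes tested. The LPS means were 6.08% to 62.4% of the PBS means. The summed signal of the 10 genes was 7633 to 8770.1 in PBS mice and 1997 to 3748 in LPS mice. Their median change was −1.54 on the log2 scale, beside a median of 0.00 over all genes tested.

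**Figure D2:**
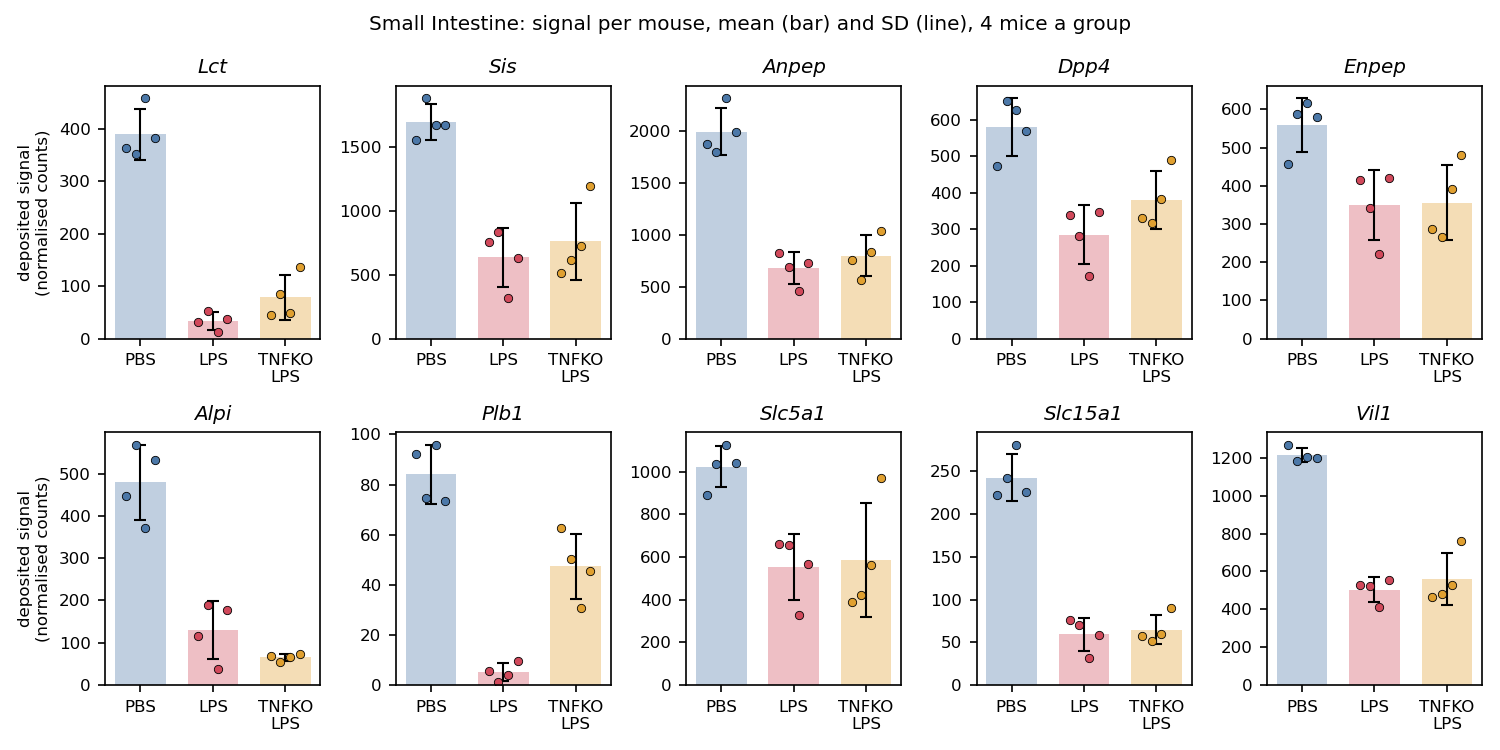
Deposited signal of each gene in the small intestine by group; points are mice, bars the mean of 4 mice and lines the SD, with each axis starting at 0. In the 10 panels the LPS points lie below the PBS points, and in the Plb1 panel the TNFKO LPS points, 30.8 to 62.5, lie between the other groups.

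The 2 hydrolases of milk sugar and of phospholipids lost the most. Lct, which splits lactose, had signals of 364, 352, 459 and 384 in PBS mice and of 32.5, 51.8, 11.6 and 36.8 in LPS mice. The LPS mean was 8.51% of the PBS mean, a log2 difference of −3.68 ± 0.32 (SE; limma adjusted p = 3.7e-08). Plb1, a lipase of broad specificity at the microvillus surface, had 92.1, 74.5, 96.0 and 73.5 in PBS mice. In LPS mice it had 5.42, 1.15, 4.08 and 9.78, which rest on 2 to 17 counts a library. Its log2 difference was −4.01 ± 0.31 (adjusted p = 7.9e-09), and the LPS mean was 6.08% of the PBS mean. Among the 9555 genes with a mean signal of at least 10 in either group, Plb1 ranked first and Lct second from the lowest log2 difference.

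Sucrase-isomaltase, which splits sucrose and the branch points of starch, kept a larger share. Sis had 1548, 1879.9, 1671 and 1670.0 in PBS mice and 754, 835, 315 and 631 in LPS mice. The LPS mean was 37.4% of the PBS mean (log2 difference −1.504 ± 0.234, limma adjusted p = 5.5e-05). Alpi, which dephosphorylates luminal LPS and nucleotides at the microvillus tip, had 446, 569, 371 and 533 in PBS mice and 116, 189.8, 38.8 and 177 in LPS mice. It fell by 2.08 ± 0.30 on the log2 scale (limma adjusted p = 2.5e-05), to 27.2% of the PBS mean.

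Of the peptidases, which release amino acids and dipeptides from peptide ends, Anpep fell the furthest. Its signal was 1868, 1799, 2315 and 1988 in PBS mice and 824, 689.6, 462 and 730.2 in LPS mice (log2 difference −1.58 ± 0.16, limma adjusted p = 3.6e-07). Dpp4, which removes dipeptides after proline or alanine and inactivates incretins, went from 473, 652, 628 and 569 to 340.1, 281, 173 and 347. That was a log2 difference of −1.06 ± 0.17 (limma adjusted p = 1.0e-04). Enpep, which removes acidic residues, went from 457, 587, 615 and 579 to 415, 341, 222 and 420.1, the smallest change of the 10 at −0.71 ± 0.18 (limma adjusted p = 0.0060). For Enpep the highest LPS mouse, at 420.1, and the lowest PBS mouse, at 457, were close.

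The transporters differed in size of change. Slc15a1, which carries dipeptides and tripeptides with protons, had 222, 242, 281 and 225 in PBS mice and 75.8, 70.7, 31.96 and 58.7 in LPS mice, a log2 difference of −2.08 ± 0.20 (limma adjusted p = 1.3e-07). Slc5a1, which carries glucose and galactose with sodium, had 893, 1034, 1128 and 1043 in PBS mice and 659, 659, 329 and 569.7 in LPS mice, a log2 difference of −0.93 ± 0.22 (limma adjusted p = 0.0034). Villin fell with the membrane proteins it underlies. Vil1 had 1270.0, 1182, 1205 and 1201 in PBS mice and 526, 524, 411 and 556 in LPS mice (log2 difference −1.28 ± 0.13, limma adjusted p = 2.5e-07). The 3′ end of Vil1 overlaps that of Usp37 on chromosome 1, and since the strand used for counting is not stated, reads of the pair cannot be told apart.

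One LPS mouse stood lowest for most of these genes. Mouse 7 had the lowest signal of the 4 LPS mice for Lct, Sis, Alpi, Anpep, Dpp4, Enpep, Slc5a1, Slc15a1 and Vil1, and the lowest summed signal, 1997 against 3536 to 3748 in the others. Its 8 villus tip markers summed to 549, beside 1242 to 1861 in the other LPS mice, and its 7 proximal small intestine markers to 1276, beside 2954 to 6780.5. Mouse 6 stood apart in the other direction, with the highest proximal sum, 6780.5, and the lowest sum of the 8 distal small intestine markers, 588, beside 1267 to 1976 in the other LPS mice. The distal markers summed to 2033 to 2542 in PBS mice, above each LPS mouse, and to 393 to 913 in TNFKO LPS mice, which overlapped the LPS mice. Proximal sums were 4629 to 5818 in PBS mice and 2387 to 4707 in TNFKO LPS mice, and both overlapped the LPS mice. The part of regional markers was not tested. In mouse 7 the pan-epithelial markers summed to 5023, within the 3792 to 5101 of the other LPS mice. Without mouse 7 the 10 genes were still lower in LPS mice, with log2 differences of −3.26 for Lct, −1.58 for Alpi and −0.51 for Enpep (limma adjusted p = 0.020 for Enpep).

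Other cell markers moved with LPS in these libraries, and their part in the change was not tested. Of the 8 pan-epithelial markers, 6 fell, and the summed signal went from 6284.5 to 7229 in PBS mice to 3792 to 5101 in LPS mice. Rescaled to those markers, which moved the median of all genes by 0.48, 8 of the 10 genes still fell, while Enpep (log2 difference −0.18, limma adjusted p = 0.42) and Slc5a1 (−0.40, adjusted p = 0.12) did not pass. The 6 B and plasma cell markers summed to 614 to 840.5 in PBS mice and 263 to 388 in LPS mice (2 of 6 fell), and the 6 macrophage markers to 154 to 162 and 203 to 243 (4 of 6 rose). The 8 villus bottom and crypt markers summed to 3239 to 5893 in PBS mice and 28718 to 44734 in LPS mice, with 2 that rose and 2 that fell. They are Reg3b, Reg3g, Nlrp6, Il18, Ccl25, Mki67, Top2a and Pcna. As members went both ways, their sum does not measure villus bottom or crypt cells. The 12 pancreas enzyme markers summed to 564 to 3655 in PBS mice and 224 to 593 in LPS mice. Rescaled to the library total without pancreas genes, the 10 genes fell, with log2 differences from −3.88 for Plb1 to −0.56 for Enpep.

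The rest of the brush border was examined with lists of genes that share these roles, chosen with earlier results of these data known. Of 15 genes listed as other brush border enzymes, 14 fell, none rose, and the median log2 difference was −1.87. The list also holds Maoa, Cndp2 and Ada, which are not specific to the brush border. The largest changes in the list were those of Mme (neprilysin), from 183 ± 25.8 to 22.1 ± 9.25 (log2 difference −3.08 ± 0.26, limma adjusted p = 1.9e-08), Ada (adenosine deaminase) at −2.91 ± 0.35 and Treh (trehalase) at −2.85 ± 0.41. Of 21 other brush border transporters, 11 fell and 1 rose, with a median of −0.86. Slc34a2, a phosphate transporter, changed by −1.999 ± 0.229, Slc46a1, the folate transporter, by −1.97 ± 0.29, and Npc1l1, the cholesterol transporter, by −1.84 ± 0.19. The transporter that rose was Slc9a3, the sodium-proton exchanger NHE3, from 46.5 ± 8.10 to 126 ± 28.3 (log2 difference 1.40 ± 0.19, limma adjusted p = 8.1e-06).

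Microvillus structure genes fell in 11 of 16 cases with a median of −0.79 and none rose. Those with the largest changes were Pdzk1, a scaffold for transporters (−2.75 ± 0.36), Espn, an actin bundler (−1.88 ± 0.34), and Cdhr2, an adhesion protein linking microvillus tips (−1.60 ± 0.21). Lipid absorption genes fell in 9 of 15 cases, median −0.93, with Fabp2, the intestinal fatty acid binding protein, from 8498 ± 1697 to 1743 ± 711, and Apoc3 at −2.38 ± 0.29. Of 17 transcription factors of enterocytes, 5 fell, among them Klf4 (−1.20 ± 0.15), Maf (−1.04 ± 0.15) and Hnf4g (−0.86 ± 0.18), and Klf5, a factor of crypt cells, rose (0.46 ± 0.11, limma adjusted p = 0.0047). None of 8 housekeeping genes passed the test.

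**Figure D3:**
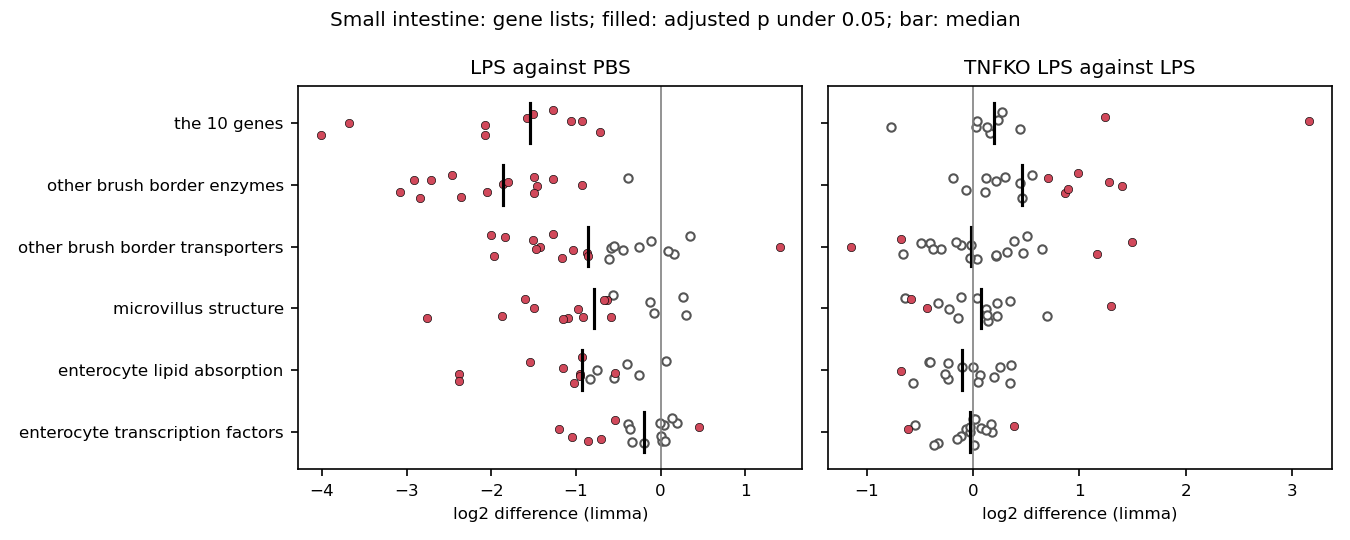
Small intestine log2 differences (horizontal, limma) of each gene in the set of 10 and in 5 further lists (vertical), for LPS against PBS and for TNFKO LPS against LPS; each point is a gene, filled where the adjusted p was under 0.05, and the bar is the median. The medians on the left run from −1.87 for other enzymes to −0.20 for transcription factors, and the point far to the right in the second panel is Plb1 at 3.16.

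The second comparison asks how TNF-deficient mice given LPS differ from C57BL/6J mice given LPS, and it uses the same LPS mice as the first. In the small intestine, 2 of the 10 genes were higher in the TNF-deficient mice, Plb1 and Lct, at a background of 4.47% of genes that were higher and 2.65% that were lower. Plb1 had 62.5, 50.4, 30.8 and 45.6 in TNFKO LPS mice, all above the LPS range of 1.15 to 9.78. The log2 difference was 3.16 ± 0.31 (limma adjusted p = 1.2e-06), a mean of 47.3 ± 13.1 against 5.11 ± 3.59, and among 9584 genes with a mean of at least 10 it was the second highest. Lct had 44.7, 84.2, 48.0 and 137, which overlapped the LPS range of 11.6 to 51.8 (log2 difference 1.24 ± 0.32, limma adjusted p = 0.022). The Lct call was lost without mouse 10 or without mouse 12, at an adjusted p of up to 0.085, with DESeq2 (adjusted p = 0.087), and when the 2 groups were fitted alone (adjusted p = 0.063).

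The other 8 genes did not pass, though Dpp4 did when the libraries were rescaled to the pan-epithelial markers (log2 difference 0.69, limma adjusted p = 0.0099). That rescaling put the median of all genes at 0.28. Sis had 512, 612, 725 and 1190.4 in TNFKO LPS mice (log2 difference 0.28 ± 0.23), Anpep 756, 560.1, 832 and 1037 (0.23 ± 0.16) and Vil1 467, 483, 528 and 759 (0.13 ± 0.13). These ranges overlapped those of the LPS mice. Dpp4 had 329.6, 316, 382 and 491 (0.44 ± 0.17), Enpep 285, 267, 392 and 479.8 (0.03 ± 0.18), Slc5a1 389, 422, 564 and 973 (0.04 ± 0.22) and Slc15a1 57.9, 51.3, 60.0 and 90.1 (0.16 ± 0.20). For Enpep and Slc5a1 the sign changed under other scalings, and without mouse 7 it changed for Sis, Enpep, Slc5a1 and Slc15a1.

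Alpi pointed the other way. Its signal was 67.6, 54.9, 65.5 and 73.3 in TNFKO LPS mice, against 116, 189.8, 38.8 and 177 in LPS mice. The log2 difference of −0.77 ± 0.30 did not pass in limma (adjusted p = 0.14) or DESeq2 (−1.04, adjusted p = 0.088), and passed in edgeR (−1.05, adjusted p = 0.023). Without mouse 7, the LPS mouse at 38.8, it was −1.26 and passed in limma (adjusted p = 1.2e-05). Mouse 12 had the highest signal of the TNFKO LPS group for 9 of the 10 genes, all but Plb1.

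Set directly against PBS mice, 9 of the 10 genes were lower in the TNF-deficient mice given LPS, at a background of 8.44% of genes lower. This pair of groups differs in genotype as well as treatment. The mean of Alpi was 13.6% of the PBS mean (log2 difference −2.85 ± 0.30, limma adjusted p = 6.5e-07), that of Lct 20.1% (−2.44 ± 0.32) and that of Slc15a1 26.7% (−1.92 ± 0.20). Vil1 stood at 46% of the PBS mean, Sis at 44.9% and Anpep at 40%, with Slc5a1, Enpep and Dpp4 between 57.3% and 65.5%. The Dpp4 call was lost without mouse 2, 3, 9 or 10 and the Enpep call without mouse 9 or 10, and for both genes the TNFKO LPS mice overlapped the PBS mice, as they did for Slc5a1, whose call was lost in DESeq2 (adjusted p = 0.052). Plb1 was the one that did not pass, at 56.3% of the PBS mean (−0.85 ± 0.31, limma adjusted p = 0.073), though its 4 TNFKO LPS values lay below the 4 PBS values and it was called by edgeR (adjusted p = 0.0041), by DESeq2 (adjusted p = 0.0017), with the 2 groups fitted alone, and without LPS mouse 6 or 8. Rescaled to the pan-epithelial markers, which put the median of all genes at 0.77, the Plb1 difference was −0.08 (limma adjusted p = 0.82). Rescaled to the pan-epithelial markers, 5 of the 10 were lower (Lct, Alpi, Anpep, Slc15a1 and Vil1), and those markers summed to 3509 to 4503 in TNFKO LPS mice.

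Among the wider lists, 6 of the 15 genes listed as other brush border enzymes were higher in TNFKO LPS than in LPS mice and none lower, with Ada at 1.40 ± 0.35 (limma adjusted p = 0.017), Nt5e, which makes adenosine from AMP, at 1.28 ± 0.22 and Mep1a, a meprin subunit, at 0.98 ± 0.24. Transporters were split, 2 higher and 2 lower of 21: Slc28a2, a nucleoside transporter, at 1.499 ± 0.259 and Slc34a2 at 1.17 ± 0.23, against Slc9a3 at −1.15 ± 0.19. Of 16 microvillus genes 1 was higher, Pdzk1 (1.30 ± 0.36), and 2 lower. Markers of crypt base and mucus cells also moved: 8 of 8 Paneth cell markers and 4 of 8 goblet cell markers were higher in TNFKO LPS mice. The Paneth markers summed to 36592 to 58130 in LPS mice and 74680 to 86817 in TNFKO LPS mice. Without overlap, TNFKO LPS mice also had higher sums of B and plasma cell markers (561 to 727 against 263 to 388), fibroblast markers (937 to 1169 against 727 to 809) and macrophage markers (248 to 297 against 203 to 243). Their part in the values of the 10 genes was not tested.

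Genes whose profile over the 12 small intestine libraries was most like the mean of the 10 were sought among 9262 genes. They were 2010106E10Rik (Pearson r = 0.996), Gpat3, an acyltransferase of triglyceride synthesis (0.990), Pepd, which splits dipeptides that end in proline (0.989), Npc1l1 (0.988) and Dpyd (0.987). 2010106E10Rik had a mean of 284 ± 25.1 in PBS, 54.8 ± 21.4 in LPS and 74.6 ± 28.7 in TNFKO LPS mice. The genes most like Lct were Cxadr (0.9895) and Cyp4v3 (0.984), and those most like Alpi were Slc46a1 (0.988) and Ces1f (0.985). Slc46a1 had means of 98.5 ± 16.8, 27.3 ± 12.5 and 15.2 ± 2.86 in the PBS, LPS and TNFKO LPS groups, and so shared with Alpi its lowest mean in the TNF-deficient mice. Across the 15 PBS tissue means Lct was most like Defa33 (0.984), Gm14851, Defa21, Defa3 and AY761184, Paneth cell defensins and related genes of the small intestine, a tissue pattern that rests on 1 high tissue. These points share libraries and groups, so the correlations are descriptions only.

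Colon gave a different picture after LPS. Of the 8 genes with a mean of at least 10 in either group, Slc5a1 was higher and none was lower, at a background of 9.45% of 13376 genes higher and 7.76% lower. Slc5a1 had 79.7, 75.8, 77.1 and 81.9 in PBS mice and 98.4, 91.1, 109.5 and 102 in LPS mice, with no overlap. The log2 difference was 0.34 ± 0.12 (limma adjusted p = 0.040). It did not pass when the 2 groups were fitted alone, in DESeq2, or in 9 of 12 fits that left out 1 mouse, with an adjusted p of up to 0.11. Vil1 had 241, 279.7, 199 and 258 in PBS mice and 188, 239, 196 and 205 in LPS mice (log2 difference −0.23 ± 0.10, adjusted p = 0.12), overlapping groups; without mouse 3 it passed as lower (−0.33, adjusted p = 0.029), and likewise without mouse 6 (−0.31, adjusted p = 0.036).

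Slc15a1, Anpep, Dpp4, Enpep, Sis and Alpi had overlapping colon values in PBS and LPS mice, with log2 differences from −0.25 to 0.15. Colon Dpp4, for example, was 54.2, 49.0, 50.1 and 46.6 in PBS mice and 51.1, 56.7, 51.4 and 45.5 in LPS mice. Lct and Plb1 stayed at 5.57 or below in every colon library. The 6 smooth muscle markers all fell in colon after LPS (median −1.19), beside 2 pan-epithelial markers higher and 1 lower of 8; their part in the colon values was not tested.

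TNF-deficient mice given LPS had more colon Vil1 and less colon Sis than LPS mice, at backgrounds of 2.51% higher and 1.31% lower. Vil1 was 295, 269, 284 and 274 in TNFKO LPS mice, above the 188 to 239 of LPS mice (log2 difference 0.44 ± 0.10, limma adjusted p = 0.011). Without mouse 9 the adjusted p was 0.050, just over the threshold. Sis was 8.46, 9.24, 5.93 and 14.8, below the 17.4 to 24.1 of LPS mice (−1.04 ± 0.26, limma adjusted p = 0.016), at a level that rests on 7 to 22 counts a library over the colon. DESeq2 did not call Sis, and the call was also lost without mouse 9 or mouse 11. Against PBS mice, Sis was lower (−1.22 ± 0.26, limma adjusted p = 0.0017) and Slc5a1 was higher at 104, 106, 99.1 and 124 (0.45 ± 0.12, adjusted p = 0.011; 0.064 without mouse 12), at backgrounds of 2.56% lower and 5.63% higher.

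**Figure D4:**
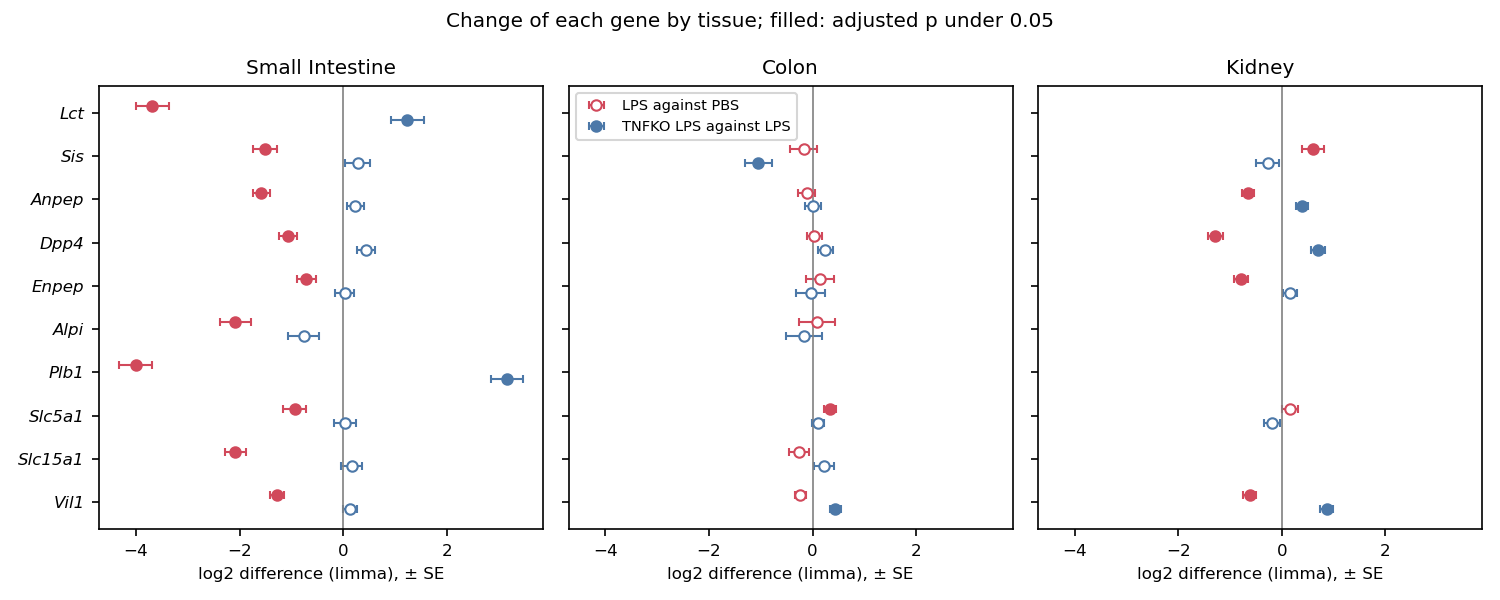
Log2 difference with its SE (horizontal, limma) for each gene (vertical) in small intestine, colon and kidney, for LPS against PBS and TNFKO LPS against LPS, shown where a group mean was at least 10; filled points have an adjusted p under 0.05. The 10 LPS points in small intestine lie between −4.01 and −0.71, those in colon between −0.25 and 0.34, and in kidney 4 of 6 lie below 0.

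In the kidney, 6 of the genes had a mean of at least 10 in either group. After LPS, Anpep, Dpp4, Enpep and Vil1 were lower and Sis was higher, at backgrounds of 21.9% of 13242 genes lower and 16.2% higher. Dpp4 had 86.5, 102, 106 and 123 in PBS mice and 46.0, 51.2, 39.6 and 33.2 in LPS mice. The groups did not overlap, and the log2 difference of −1.28 ± 0.14 (limma adjusted p = 2.6e-08) was the largest of the kidney changes among the 6.

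Enpep had 92.1, 111, 93.4 and 88.3 in PBS kidney and 52.0, 49.96, 52.1 and 68.3 in LPS kidney (log2 difference −0.79 ± 0.14, limma adjusted p = 5.8e-05). Anpep had 105, 112, 109 and 105 against 63.4, 57.0, 68.9 and 85.0 (−0.66 ± 0.11, adjusted p = 4.4e-05). Vil1 had 97.7, 104, 97.8 and 88.3 against 59.4, 87.1, 52.1 and 56.3 (−0.62 ± 0.13, adjusted p = 4.6e-04). For each of the 3 the LPS kidneys lay below the PBS kidneys, by a narrow gap for Vil1.

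Slc5a1, the late proximal tubule glucose transporter, did not pass in kidney: 62.8, 79.5, 91.5 and 62.0 in PBS mice and 70.0, 60.9, 89.5 and 113 in LPS mice (0.15 ± 0.16, limma adjusted p = 0.49). Kidney Sis rose from 6.98, 10.4, 9.53 and 12.8 to 16.01, 13.5, 18.3 and 13.9 (0.60 ± 0.22, limma adjusted p = 0.031). The LPS levels lie within the 8.88 to 31.0 of PBS means in tissues outside the intestine and kidney, and the call was lost in DESeq2 (adjusted p = 0.063) and without mouse 1, 3, 5 or 7. Lct, Plb1, Alpi and Slc15a1 had a mean below 10 in each kidney group.

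**Figure D5:**
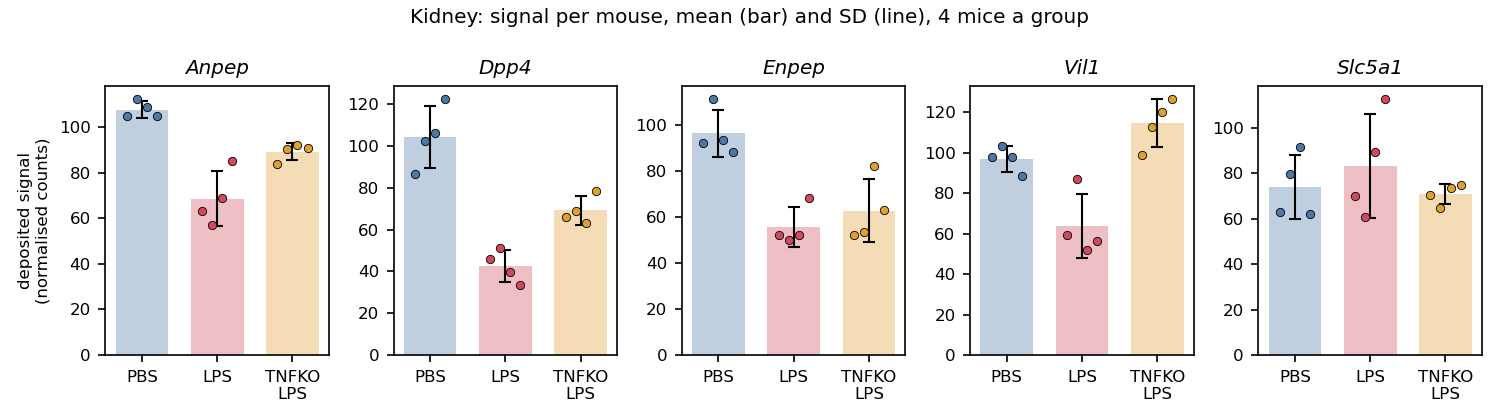
Deposited kidney signal of 5 genes by group; points are mice, bars the mean of 4 mice and lines the SD, with each axis starting at 0. LPS points lie below PBS points for Anpep, Dpp4, Enpep and Vil1, and the TNFKO LPS points lie above the LPS points for Dpp4 and Vil1.

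Kidney values of the TNF-deficient mice given LPS were above those of LPS mice for 3 of the 6 genes, at backgrounds of 13.2% higher and 6.82% lower. Vil1 had 99.1, 113, 120.2 and 127, above each LPS kidney (log2 difference 0.86 ± 0.13, limma adjusted p = 3.6e-05). Dpp4 had 66.0, 69.0, 62.9 and 78.7, also above each LPS kidney (0.70 ± 0.14, adjusted p = 5.1e-04). Anpep had 83.6, 90.2, 92.3 and 90.8, which overlapped the highest LPS kidney at 85.0 (0.39 ± 0.11, adjusted p = 0.016; 0.052 without mouse 5 and 0.068 in DESeq2).

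Enpep stayed at 52.0, 53.6, 81.9 and 63.1 in TNFKO LPS kidneys and did not pass (0.16 ± 0.14). Against PBS kidneys, Dpp4 (−0.58 ± 0.14, limma adjusted p = 0.0028) and Enpep (−0.63 ± 0.14, adjusted p = 0.0017) were lower in TNFKO LPS mice, at a background of 9% of genes lower. Anpep and Vil1 did not pass. The TNFKO LPS values of Anpep, 83.6 to 92.3, nevertheless lay below the PBS values of 105 to 112. Anpep was called lower with the 2 groups fitted alone (−0.27, limma adjusted p = 0.041). Vil1 values of TNFKO LPS and PBS kidneys overlapped. Of 17 other genes of the proximal tubule brush border, 16 fell with LPS, and 7 were higher in TNFKO LPS than in LPS kidneys with none lower. Pan-epithelial markers went the opposite way in kidney: 7 of 8 rose with LPS, from a summed 479 to 558 to 849 to 1471, and 6 of 8 were lower in TNFKO LPS than LPS mice. Their part in the kidney values was not tested.

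Whether the LPS change differed between tissues was tested in 1 fit of the 36 libraries of small intestine, colon and kidney. Small intestine minus colon, 8 of the 8 genes with a mean of at least 10 in both tissues passed, each with a more negative change in small intestine, at a background of 9.86% of genes. The differences ran from −2.17 ± 0.47 for Alpi to −0.86 ± 0.28 for Enpep (limma adjusted p = 0.0015 and 0.045). Colon Alpi rested on only 4 to 14 counts a library in PBS and LPS mice. The Enpep call was lost in 5 of the 12 fits that left out 1 mouse, with an adjusted p of up to 0.21, and at a pseudocount of 0.25 or with median-of-ratios scaling. Small intestine minus kidney, 4 of 6 passed at a background of 21%: Sis (−2.11 ± 0.31), Slc5a1 (−1.08 ± 0.26), Anpep (−0.92 ± 0.19) and Vil1 (−0.65 ± 0.18). Dpp4 (0.22 ± 0.22, adjusted p = 0.53) and Enpep (0.07 ± 0.28, adjusted p = 0.90) did not. Kidney Sis rested on only 10 to 25 counts a library in PBS and LPS mice.

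For TNFKO LPS against LPS, the same fit called 1 of 8 genes between small intestine and colon (background 1.43%) and 1 of 6 between small intestine and kidney (background 5.53%). Sis differed by 1.32 ± 0.31 from colon (limma adjusted p = 0.016), where its own change was −1.04, and the call was lost without mouse 7 or mouse 11 (adjusted p = 0.073 and 0.097). Vil1 differed by −0.73 ± 0.18 from kidney (adjusted p = 0.0063), with 0.13 in small intestine and 0.86 in kidney, and not without mouse 8 (adjusted p = 0.054).

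Outside these 3 tissues, 70 pairs of gene and tissue had a group mean of at least 10 for LPS against PBS, of which 6 rose and 7 fell, beside 11.8% and 12.3% of all such pairs. Dpp4 made up 3 of the 6 and 3 of the 7. It fell in liver from 210, 217, 217 and 219 to 50.4, 59.7, 55.0 and 42.2 (log2 difference −2.05 ± 0.14, limma adjusted p = 6.9e-13), in lung (−1.55 ± 0.15) and in skin (−1.37 ± 0.22). It rose in thymus from 61.8, 63.1, 71.9 and 74.5 to 176, 149, 117 and 148 (1.10 ± 0.12, limma adjusted p = 7.7e-10), in bone marrow (0.70 ± 0.14) and in inguinal lymph node (0.96 ± 0.13). Groups did not overlap in any of those 6 tissues, where the share of all genes without overlap was not taken. By the limma call, Dpp4 was lower after LPS in small intestine, kidney, liver, lung and skin and higher in thymus, lymph node and bone marrow. Muscle and white fat did not pass, though their LPS mice also lay below the PBS mice. Dpp4 in muscle was 24.3 to 32.6 in PBS mice and 12.1 to 18.97 in LPS mice. White fat had 27.9 to 38.5 in PBS mice and 15.0 to 24.9 in LPS mice. In spleen Dpp4 did not pass, at 73.6 to 102 in PBS mice and 57.7 to 81.9 in LPS mice.

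Enpep fell in lung from 96.0, 101.05, 81.0 and 78.7 to 20.9, 29.3, 27.9 and 21.96 (−1.80 ± 0.16, limma adjusted p = 8.4e-10), in liver (−1.004 ± 0.180) and in white fat (−0.86 ± 0.22). The remaining calls had group means of at most 34.2: Slc5a1 lower in inguinal lymph node, Vil1 and Slc15a1 higher in skin, and Sis higher in white fat. For TNFKO LPS against LPS, 3 of 71 pairs were higher and 1 lower, beside 3.3% and 2.8% of all such pairs. Liver Dpp4 had 82.6, 74.7, 86.1 and 84.9 in TNFKO LPS mice, above the LPS range (0.66 ± 0.14, limma adjusted p = 0.0012), liver Anpep was higher by 0.62 ± 0.14 and lung Enpep by 0.67 ± 0.16. Lung Plb1 was lower, at a mean of 5.16 against 12.0.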

How the data were processed

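Deposited values came from 3′-tag RNA-seq of 180 libraries. The authors scaled counts to an effective library size; the deposited signal is that value, per the table's values, with edgeR, FastQC and MultiQC and the mm10 build named without versions in the submitters' processing notes. The aligner, the strand used for counting and whether molecular identifiers were collapsed are not given in the sources used here. In each column 100% of values were whole multiples of the value of 1 count (tolerance 0.1 count), which gave the counts used for depth and for edgeR and DESeq2. In 9 of the 180 columns a second check of that step could not be made.

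In each tissue, log2(signal + 1) was fitted with limma 3.58.1 (R 4.3.3, trend) over the 3 groups, on genes whose signal reached 1 in 4 or more of 12 libraries, with 9 residual degrees of freedom and Benjamini-Hochberg adjustment at 0.05. A fold on this scale understates changes of low genes. In small intestine the count test, edgeR 4.0.16, called 2959 genes for LPS against PBS and 1096 for TNFKO LPS against LPS, limma 3091 and 945, and DESeq2 1.42.0 2424 and 824. Differences between tissues came from 1 fit of 36 libraries; the labels give 1 library per tissue from each numbered mouse, and with the mouse as a block the estimated correlation was 0.036. Of 270 replicate pairs none agreed within counting noise (chi-square per degree of freedom 1.18 to 10.5). Tested on simulated data for small intestine LPS against PBS (13044 genes), the fit recovered 100% of changes of 2 and 82% to 86% of changes of 1 on the log2 scale, and 7.54% of its calls were false, above the 5% aimed at. The simulation used PBS means and gave every gene the same dispersion between libraries, so these rates are for that setting and can differ in the real libraries.

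Members and lists were chosen with earlier results of these data known. The text names all 10 genes and, per list, up to 3 genes with the largest change past the threshold and a mean of at least 10, any gene that passed against its list's direction, apart from 1 result in the kidney list that is not reported here, and the genes of highest Pearson r. Alternatives were a pseudocount of 0.25, no filter, median-of-ratios scaling, 2 groups only, edgeR, DESeq2, leaving out each mouse and, in small intestine, 3 rescalings, of which that to the library total was added after seeing the data. Sequences are from RefSeq tables; Python 3.11.15, pandas 2.3.3 and matplotlib 3.10.9 were used.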

Additional observations from a re-analysis of the deposited data

Results flagged for a closer look

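The change after LPS differed between small intestine and colon, by the test of the difference itself, for 8 genes. The log2 differences, small intestine minus colon, were −1.28 for Slc5a1, −1.83 for Slc15a1, −1.04 for Vil1, −1.33 for Sis, −0.86 for Enpep, −1.09 for Dpp4, −1.47 for Anpep and −2.17 for Alpi. Small intestine minus kidney, they were −1.08 for Slc5a1, −0.65 for Vil1, −2.11 for Sis and −0.92 for Anpep. For TNFKO LPS against LPS, Sis differed by 1.32 between small intestine and colon, and Vil1 by −0.73 between small intestine and kidney.

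One mouse stood apart within its group: Enpep in the kidney of LPS mouse 8, at a signal of 68.3, lay far above the other 3, at 49.96 to 52.1. Of 68 groups of 4 checked, 1 stood out in this way, and chance gives about 1 in 20.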

How the results depend on the processing

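All 10 genes were lower after LPS in small intestine in each fit that left out 1 mouse and with edgeR and DESeq2. Over all genes and comparisons, 1831 member values were recomputed, of which 1708 kept direction and side of the threshold, 47 lost a call, 11 gained one and 65 changed sign. The cause of these changes was not tested. With the mouse as a replicate block, the pairing across tissues left the member counts at 8, 4, 1 and 1, gave 1455, 2992, 206 and 841 genes in place of 1352, 2877, 196 and 758, and changed no member call.

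Rescaling small intestine to pan-epithelial markers gave 6244 genes for LPS against PBS, 1998 for TNFKO LPS against LPS and 9706 for TNFKO LPS against PBS, where 5 of the 10 genes were lower and Dpp4 (0.16) and Enpep (0.10) changed sign. It put the median of all genes at 0.48, 0.28 and 0.77 in that order. For TNFKO LPS against LPS in small intestine, Enpep was −0.0137 with median-of-ratios scaling, −0.0169 with edgeR, −0.0200 with DESeq2, −0.0921 without pancreas genes and −0.0922 by library total. Slc5a1 was −0.00786 with median-of-ratios scaling, and −0.0864 both without pancreas genes and by library total. There, 1 gene was higher with 2 groups only and with DESeq2, and 1 was lower with edgeR. In colon after LPS, 0 were higher with 2 groups only and with DESeq2, and Dpp4 was −0.0125 with edgeR. In colon for TNFKO LPS against LPS, Anpep was −0.0238 with median-of-ratios scaling, −0.0114 with edgeR and −0.0205 with DESeq2, edgeR called 862 genes, and DESeq2 had 0 of the 10 lower. In kidney after LPS, DESeq2 had 0 of the 10 higher.

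Leaving out 1 mouse, small intestine TNFKO LPS against LPS had 0 to 1 genes lower, 1 to 2 higher and 544 to 1239 calls over all genes. Sis ranged from −0.0271 to 0.442, Enpep from −0.173 to 0.155, Slc5a1 from −0.239 to 0.201, Slc15a1 from −0.102 to 0.305 and Vil1 from −0.0263 to 0.207. In colon after LPS, 0 to 1 were lower and 0 to 1 higher, with Alpi from −0.227 to 0.292, Dpp4 from −0.0196 to 0.0850 and Enpep from −0.0310 to 0.323. In colon TNFKO LPS against LPS, 0 to 1 were lower and 0 to 1 higher, with 296 to 835 calls over all genes, Alpi from −0.367 to 0.0289, Anpep from −0.0500 to 0.0771 and Enpep from −0.215 to 0.101. In colon TNFKO LPS against PBS, 0 to 1 were higher, with Alpi from −0.388 to 0.0743, Enpep from −0.0689 to 0.247 and Slc15a1 from −0.198 to 0.0750. In kidney, 0 to 1 were higher after LPS, and Slc5a1 ranged from −0.00829 to 0.284, and from −0.122 to 0.0625 for TNFKO LPS against PBS.

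Between tissues, small intestine minus kidney after LPS ranged from −0.0504 to 0.2501 for Enpep and from −0.000233 to 0.416 for Dpp4. For TNFKO LPS against LPS minus colon, 0 to 1 were higher, with 98 to 256 calls over all genes, Slc5a1 from −0.350 to 0.0733, Slc15a1 from −0.320 to 0.232, Enpep from −0.181 to 0.342 and Dpp4 from −0.0324 to 0.359. Minus kidney, 0 to 1 were lower, with 484 to 1044 calls over all genes, Slc5a1 from −0.0492 to 0.466 and Anpep from −0.337 to 0.00578. Depth limits Plb1 in LPS small intestine, at 2 to 17 counts a library, and Sis in colon, at 7 to 22. It also limits Alpi in colon, at 4 to 14, Enpep in colon, at 9 to 26, and Sis in kidney, at 10 to 28.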
